A study of Homo sapiens with 12 samples.

Results

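Expression of 10 genes of cholesterol efflux and of the liver X receptors (LXR) was measured in Daoy cells cultured in astrocyte conditioned medium (ACM). The genes were ABCA1, ABCG1, APOE, NR1H2, NR1H3, MYLIP, LPCAT3, NPC1, NPC2 and SCARB1. They were chosen by name. Each was found on the array through the RefSeq accession of its probe, and the probe with the highest mean signal stood for the gene. All 10 genes had a probe, with 11 probes in all since ABCA1 had a pair, out of 25270 genes that were tested on the whole array. All 11 probes were well above background on all 12 arrays.

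Daoy is an established human medulloblastoma (MB) line, and ACM is medium taken from cultures of primary neonatal rat astrocytes. Cells were grown in ACM or in DMEM, both with 10% fetal bovine serum, and were taken at passage 1 (P1) or passage 3 (P3), with 48 h to a passage. RNA of 3 cultures per medium and passage was labelled with Cy3 and hybridised to 12 single-colour Agilent arrays, which gave the groups P1 ACM, P1 DMEM, P3 ACM and P3 DMEM. The DMEM was not conditioned by any cell, the labels name no lipid content for either medium, and all samples come from 1 cell line.

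Cells cannot break down the sterol ring, so surplus cholesterol is stored as ester or handed to an acceptor outside the cell. LXR, with the forms LXRα (NR1H3) and LXRβ (NR1H2), binds oxidised sterols and, as a pair with a retinoid X receptor, raises the transporters ABCA1 and ABCG1, the lipoprotein APOE, the enzyme LPCAT3 and the ubiquitin ligase MYLIP. In the brain, astrocytes make most of the APOE particles that carry cholesterol to other cells, and cells that take up such particles free the cholesterol in lysosomes through NPC2 and NPC1. The comparison of ACM with DMEM asks whether the genes that carry cholesterol out of the lysosome and out of the cell differed between these media.

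LXR binds a direct repeat of AGGTCA with 4 bases between the repeats. The 250 bases before each annotated start were searched for this element on both strands, with at most 3 mismatches in the 12 repeat bases, in the RefSeq promoters of GRCh38.p14. Promoters were found for 8 of the 10 genes. A match was found for 2 of these 8, against 19.1% of 27305 genes with a promoter. The ABCA1 match had 2 mismatches, which 2.53% of genes reach, and lies on the opposite strand 54 to 69 bases before the start, at chr9:104928209-104928224. It is shown in capitals within the ABCA1 promoter, chr9:104928156-104928405 (minus strand), because ABCA1 is the gene through which an LXR response is most often read.
ABCA1: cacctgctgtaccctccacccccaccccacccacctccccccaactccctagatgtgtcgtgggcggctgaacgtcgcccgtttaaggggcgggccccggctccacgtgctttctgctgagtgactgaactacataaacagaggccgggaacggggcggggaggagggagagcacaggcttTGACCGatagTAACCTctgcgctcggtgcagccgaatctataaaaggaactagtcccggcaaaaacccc
NPC2: GGGTCCgggcGGGTCA
The NPC2 match, shown because NPC2 was the 1 gene of the 10 with an unadjusted p below 0.05 between media, had 3 mismatches and lies at chr14:74493498-74493513 (minus strand), before only 1 of the annotated starts of the gene. These matches describe letters and not binding.

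Levels are log2 intensities after background correction, from which the 75th percentile of the same array was subtracted, so that a level of 0 is that percentile. Levels of different probes were not compared with each other. The share of probes well above background ran from 74.2% to 94.6% over the 12 arrays, with the P1 ACM arrays at 90.9% to 94.6% and the slide 2 arrays at 74.2% to 80.2%. The arrays came from 3 slides with 4 arrays on each, a slide being read here as the arrays of 1 scan run. All of P1 ACM was on slide 1 together with P3 ACM replicate 1. P3 ACM replicates 2 and 3 were beside P1 DMEM replicates 1 and 2 on slide 2, and all of P3 DMEM was beside P1 DMEM replicate 3 on slide 3. Within a passage no slide held both media, so that each comparison of media at 1 passage ran across slides. Of 12 markers of Daoy and of sonic hedgehog MB, 11 or 12 were well above background on every array.

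The labels of the arrays are in conflict. The authors also deposited a table of processed values, and none (0) of its 12 columns ranked its probes most like the scanner array of the same label. Each column ranked like an array of another slide, with Spearman correlations of at least 0.999975, in the reverse order of the array positions. The matched array had the same medium for 4 of 12 columns and the same passage for 6. Groups below follow the labels of the scanner output, and values under the labels of the table are given beside the results for the 10 genes and for the lists around them. Which set of labels is right cannot be told apart from the files.

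None (0) of the 10 genes passed an adjusted p of 0.05 in limma between ACM and DMEM at P1 or at P3, a threshold that no gene (0%) of the array passed. At an unadjusted p of 0.05, 1 of 10 genes passed at P1 and 1 at P3, and both times this was NPC2, lower in ACM. Over the mean of both passages 1 of 10 passed, again NPC2, beside 23.1% of all genes, and none (0) of 10 passed for the change of the effect between passages, beside 8.24%. Of all genes 24% passed at P1 (23.1% higher and 0.91% lower) and 7.27% at P3 (3.85% higher and 3.43% lower). None (0) of the 10 passed the study's thresholds of more than 2-fold with p of 0.05 or less, against 13.6% of genes at P1 and 1.73% at P3. The arrays of the media did not overlap for 0 of 10 genes at P1, where 36% of all genes had no overlap, and for 1 of 10 at P3, where 9.73% had none. The genes were split evenly, with 5 higher and 5 lower in ACM at both passages (63.9% of all genes were higher at P1 and 50.4% at P3), and their median difference was −0.01 at P1 and 0.02 at P3, beside 0.15 and 0.00 for all genes. The median of all genes at P1 depended on scaling, moving from 0.15 to 0.00 under quantile normalization, where 11.1% of genes passed as higher and 4.85% as lower.

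**Figure D1:**
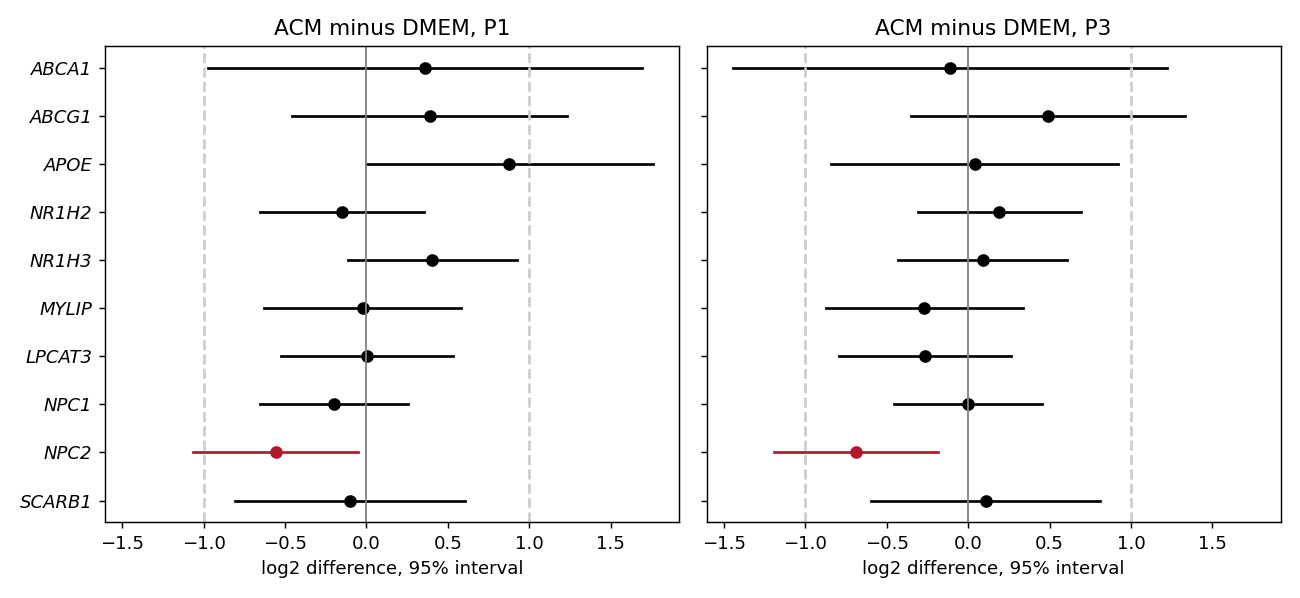
Difference between ACM and DMEM (horizontal axis, log2, points) with its 95% interval (lines) for each of the 10 genes at P1 (left) and P3 (right), from limma on 12 arrays. Red marks an unadjusted p of 0.05 or less and dashed lines mark a 2-fold difference; NPC2 is the 1 red gene in both panels, at −0.56 and −0.69.

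The intervals in the plot of differences show what these arrays could resolve. At P1 the 95% interval lay within 2-fold in both directions for 6 of the 10 genes, NR1H2, NR1H3, MYLIP, LPCAT3, NPC1 and SCARB1. At P3 it did so for these 6 and for APOE. For ABCA1 and ABCG1 the interval reached past 2-fold at both passages. Standard errors ran from 0.21 for NPC1 to 0.60 for ABCA1. With the replicate number as a block on the 12 arrays, the interval lay within 2-fold for 7 genes at P1 and 8 at P3, now with ABCA1 and still without ABCG1. On the 6 arrays of a passage alone, with the same block, it did so for 8 genes at P1, with both transporters, and for 7 at P3. Whether equal numbers mark paired samples was not tested.

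ABCA1, which loads cholesterol and phospholipid onto lipid-poor apolipoproteins, was at −1.59, −2.92 and −1.88 in P1 ACM (replicates 1 to 3) and at −2.24, −3.45 and −1.79 in P1 DMEM. At P3 it was at −0.96, −3.06 and −1.63 in ACM and at −1.52, −2.54 and −1.25 in DMEM. The media overlapped at both passages. The difference was 0.36 ± 0.60 (SE, n = 3 per group) at P1 and −0.11 ± 0.60 at P3, with adjusted p of 0.815 and 0.968 in limma. The dimmer ABCA1 probe gave −0.10 and 0.01. The interval at P1 spanned 0.51-fold to 3.23-fold. With the replicate number as a block on 12 arrays the standard error was 0.24, and the interval spanned 0.88-fold to 1.88-fold at P1 and 0.63-fold to 1.35-fold at P3.

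The spread of ABCA1 went with the replicate number more than with the group. Replicate 2 was the lowest array of ABCA1 in all 4 groups, by both probes, which was noticed after the values were seen and is given with no test. A gene has 1 replicate number at the bottom of all 4 groups in 9.91% of genes on the array. The replicate number took up 77.7% of the sum of squares of ABCA1 and the group 13.9%, and 1.47% of genes had a share for the replicate number at least as high. SCARB1 (70.7%) and MYLIP (62.4%) also had high shares, beside a median of 15.1% over all genes. Under the labels of the table the replicate number took up 18.8% for ABCA1, 1.40% for SCARB1 and 1.06% for MYLIP, and no member (0) had the same number lowest throughout.

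**Figure D2:**
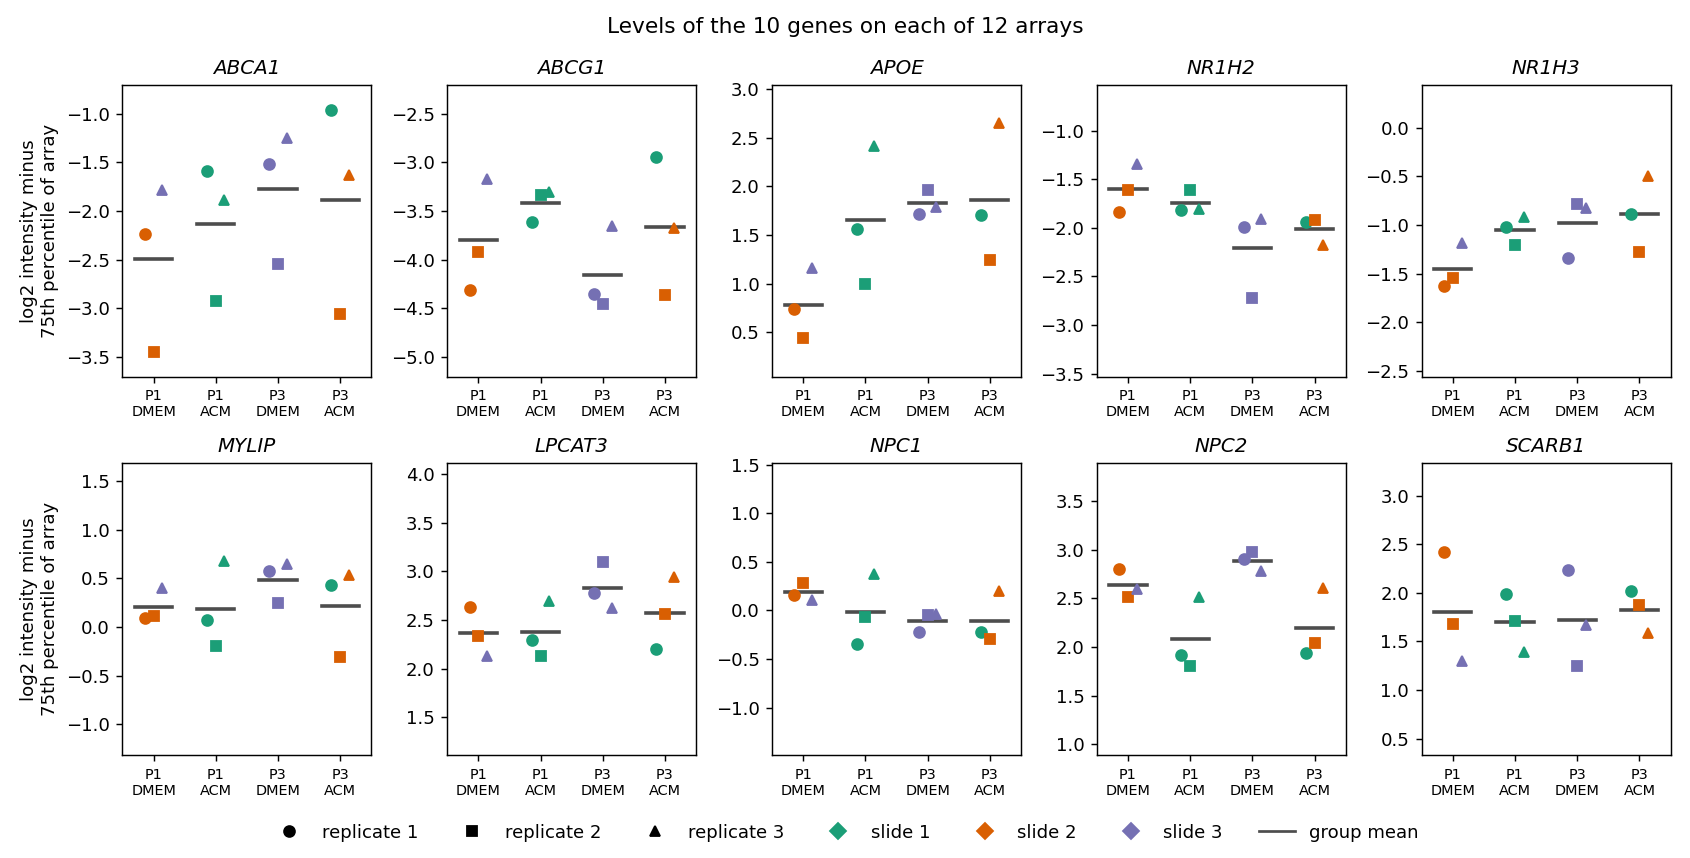
Level of each gene (vertical axis, log2 intensity relative to the array's 75th percentile; every panel spans 3 units) on each array, by group; symbols give the replicate number, colours the slide and bars the group mean. In the ABCA1 panel the squares of replicate 2 are the lowest points of all 4 groups, and in the NPC2 panel the ACM means, 2.08 and 2.20, lie under the DMEM means, 2.64 and 2.88.

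ABCG1 passes cholesterol on to lipid-rich particles. Its levels were −3.61, −3.33 and −3.30 in P1 ACM against −4.32, −3.92 and −3.17 in P1 DMEM, and −2.95, −4.37 and −3.68 in P3 ACM against −4.35, −4.46 and −3.65 in P3 DMEM. At P3 the 3 numbered pairs were not all in the same order, and the media overlapped at both passages. The differences were 0.39 ± 0.38 at P1 and 0.49 ± 0.38 at P3 (SE, n = 3 per group; adjusted p = 0.646 and 0.769, limma). Without P3 ACM replicate 2 the P3 difference was 0.84 and passed an unadjusted p of 0.05 (adjusted p = 0.721, limma). Without P3 ACM replicate 1, the highest ABCG1 array, it was 0.13 (adjusted p = 0.964), and with slide as a block it was 1.09 (adjusted p = 0.976). At P1 its direction depended on scaling, with −0.0658 under quantile normalization. SCARB1, the receptor that exchanges cholesterol with HDL in both directions, was at 1.99, 1.71 and 1.39 in P1 ACM, 2.42, 1.68 and 1.30 in P1 DMEM, 2.02, 1.88 and 1.59 in P3 ACM and 2.24, 1.25 and 1.67 in P3 DMEM. Its group means ran from 1.70 to 1.83, and the SD within a group from 0.22 to 0.57.

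APOE was the gene with the highest difference at P1. Its levels were 1.56, 0.99 and 2.42 in P1 ACM and 0.74, 0.44 and 1.16 in P1 DMEM. ACM was higher in each of the 3 pairs of equal number, though ACM replicate 2 lay below DMEM replicate 3. The difference was 0.88 ± 0.40 (SE), 1.84-fold with a 95% interval of 1.00 to 3.38, and missed the threshold (p = 0.051, adjusted p = 0.221, limma; exact permutation p = 0.2, where 0.1 is the smallest that 3 against 3 arrays allow). Single arrays moved it in both directions. Without P1 ACM replicate 2 it was 1.21 and without P1 DMEM replicate 3 it was 1.07, both past the study's thresholds (adjusted p = 0.275 and 0.191, limma). Without P1 ACM replicate 3, the highest APOE array of its group, it was 0.50, and without P1 DMEM replicate 2 it was 0.71 (adjusted p = 0.538 and 0.48, limma). The deviations of equally numbered samples correlated in all 3 pairs at P1, so the number was also fitted as a block. With 12 arrays APOE then passed an unadjusted p of 0.05 (adjusted p = 0.135, limma), and with the 6 P1 arrays alone, a fit added after seeing the data, its adjusted p was 0.0318. That fit called 5473 genes at this threshold, against 0 in the fit of all arrays.

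At P3 the levels of APOE were 1.70, 1.24 and 2.65 in P3 ACM and 1.72, 1.96 and 1.79 in P3 DMEM, a difference of 0.04 ± 0.40 (adjusted p = 0.985, limma). The change of the difference between passages was itself not past the threshold, −0.84 ± 0.57 (adjusted p = 0.774, limma). P1 DMEM was the group that stood apart: between the control groups APOE was higher at P3 by 1.04 ± 0.40 (2.06-fold, adjusted p = 0.571, limma), with no overlap of arrays, which was so for 11.2% of genes. On slide 2, the only slide with both media, the P3 ACM arrays of APOE (1.24 and 2.65) lay above the P1 DMEM arrays (0.44 and 0.74). On slide 3 the P3 DMEM mean was 0.66 above P1 DMEM replicate 3. Under the labels of the table APOE was lower in ACM, by −0.28 at P1 and −0.12 at P3.

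Of the receptors, NR1H3 resembled APOE. NR1H3 was at −1.02, −1.21 and −0.92 in P1 ACM and −1.63, −1.54 and −1.19 in P1 DMEM, a difference of 0.40 ± 0.24 (SE, n = 3; adjusted p = 0.357, limma), and the media met only where ACM replicate 2 lay just under DMEM replicate 3. At P3 the difference was 0.09 ± 0.24. Across the 12 arrays NR1H3 and APOE had a Pearson correlation of 0.88, the highest of any pair among the 10 genes, which is given as a description since the arrays share groups and slides. NR1H2 differed by −0.15 ± 0.23 at P1 and 0.19 ± 0.23 at P3. In DMEM the difference of P3 minus P1 was −0.61 ± 0.23 (adjusted p = 0.571, limma), with P3 DMEM at −1.99, −2.72 and −1.90 and P1 DMEM at −1.84, −1.61 and −1.34, a lack of overlap shared by 7.77% of genes in this direction.

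MYLIP, which marks proteins for destruction, was at 0.07, −0.20 and 0.68 in P1 ACM, 0.10, 0.12 and 0.41 in P1 DMEM, 0.43, −0.31 and 0.53 in P3 ACM and 0.57, 0.25 and 0.64 in P3 DMEM. The difference was −0.02 ± 0.27 at P1 and −0.27 ± 0.27 at P3, and the 95% interval at P1 spanned 0.65-fold to 1.50-fold. ABCA1 and MYLIP, both direct LXR targets, correlated by 0.73 over the 12 arrays, and the replicate number took up 77.7% and 62.4% of their sums of squares. The other pairs among ABCA1, ABCG1, APOE, LPCAT3 and MYLIP ran from −0.64 (ABCG1 and LPCAT3) to 0.64 (APOE and MYLIP). The genes most like ABCA1 among 15516 that were well above background on all arrays were CSMD1 (r = 0.95), INPP5B (0.90) and SNAP91 (0.89), and those most like MYLIP were CRAT (0.87), CFDP1 (0.86) and TSHZ2 (0.85). LPCAT3, which builds polyunsaturated phospholipids, ranged from 2.13 to 2.70 in P1 ACM and from 2.14 to 2.63 in P1 DMEM, with a difference of 0.00 ± 0.24. At P3 its difference was −0.27 ± 0.24 (2.21 to 2.94 in ACM, 2.62 to 3.10 in DMEM).

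NPC1 and NPC2 hand cholesterol out of the lysosome in turn. NPC2, the soluble protein that picks up cholesterol inside the lysosome, was at 1.92, 1.80 and 2.51 in P1 ACM and at 2.80, 2.51 and 2.60 in P1 DMEM. ACM was lower in each numbered pair, but ACM replicate 3 and DMEM replicate 2 touched at 2.51. At P3 the levels were 1.94, 2.04 and 2.60 in ACM and 2.90, 2.97 and 2.78 in DMEM, with every ACM array below every DMEM array. Such a lack of overlap in this direction was seen in 5.01% of genes.

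The NPC2 difference was −0.56 ± 0.23 at P1 (SE, n = 3 per group; p = 0.0336, adjusted p = 0.175, limma) and −0.69 ± 0.23 at P3 (p = 0.0122, adjusted p = 0.659; exact permutation p = 0.1, the smallest possible). Over both passages it was −0.62 ± 0.16 (adjusted p = 0.12, limma), 1.54-fold lower in ACM with a 95% interval of 0.51 to 0.83 for the ratio of ACM to DMEM. Without P3 ACM replicate 3, whose NPC2 was the highest of its group, the mean difference was −0.73 with adjusted p = 0.0417 (limma); the other alternatives for it gave adjusted p of 0.0909 to 0.975. The change of the effect between passages was −0.13 ± 0.32 (adjusted p = 0.97, limma). Leaving out P1 ACM replicate 1 or 2, or P1 DMEM replicate 1 or 3, brought the P1 value to between −0.42 and −0.58 with unadjusted p over 0.05. Slide accounted for 63.0% of the NPC2 sum of squares and group for 67.7%. With slide as a block the difference was −0.20 at P1 (adjusted p = 0.963, limma) and −0.62 at P3 (adjusted p = 0.976), and on slide 2 the P3 ACM mean minus the P1 DMEM mean was −0.33, with overlap. Under the labels of the table NPC2 was higher in ACM, by 0.11 at P1 (adjusted p = 0.977, limma) and 0.35 at P3 (adjusted p = 0.479).

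NPC1, the membrane protein that takes cholesterol from NPC2, ranged from −0.35 to 0.37 in P1 ACM and from 0.11 to 0.29 in P1 DMEM. Its difference was −0.20 ± 0.21 at P1 and −0.00 ± 0.21 at P3 (SE, n = 3; adjusted p = 0.67 and 0.999, limma). The difference between the effects on NPC1 and on NPC2 was not tested.

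**Figure D3:**
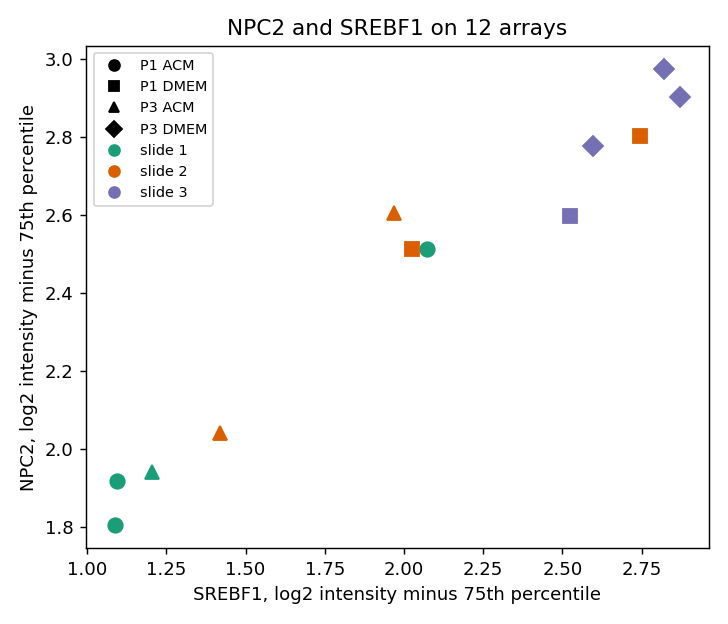
Level of NPC2 (vertical axis) against SREBF1 (horizontal axis), both as log2 intensity minus the 75th percentile, on the 12 arrays; symbols give the group and colours the slide. The points lie close to a line, from P1 ACM replicates 1 and 2 at the lower left to the P3 DMEM arrays at the upper right.

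Of 15516 genes, the one most like NPC2 was SREBF1, which codes for the fatty acid synthesis regulator SREBP1 and is itself an LXR target. Close behind were ZNF671 (r = 0.97), ZFYVE26 (0.96), HELQ (0.96) and CLCN6 (0.96), and a link of NPC2 with any of them was not tested. The pair of NPC2 and SREBF1 was named after its values were seen. The Pearson correlation was 0.98 over the 12 arrays, 0.94 for the deviations from the group means and 0.95 for the deviations from the slide means, as shown in the plot of NPC2 against SREBF1. It was 0.97 over the 12 columns of the table, a value that does not depend on the labels. SREBF1 was at 1.09, 1.09 and 2.07 in P1 ACM and at 2.75, 2.03 and 2.53 in P1 DMEM. At P3 it was at 1.20, 1.42 and 1.97 in ACM and 2.87, 2.82 and 2.60 in DMEM. Its difference was −1.01 ± 0.31 at P1 (adjusted p = 0.103, limma) and −1.23 ± 0.31 at P3 (adjusted p = 0.612). With slide as a block it was −0.48 and −0.93, and 0.011 and 0.71 under the labels of the table.

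The lists around the 10 genes were read from the same fit by counts at an unadjusted p of 0.05, since no gene (0) of any list passed an adjusted p of 0.05. Of 13 measured LXR partners and oxysterol enzymes, 2 passed as higher at P1, RXRB (0.64 ± 0.27) and RXRG (0.51 ± 0.21), both partners of LXR, and none (0) as lower. This made 15.4% of the list, beside 24% of all genes. Slide as a block left 0 of the 13 past this p at either passage, beside 3.21% of all genes at P1 and 3.88% at P3. It put RXRB at −0.18 and RXRG at 0.051 at P1, and under the labels of the table RXRB was at −0.78 and RXRG at 0.17. RXRA was at −0.15 ± 0.26. At P3 none (0) passed as higher and 1 as lower, CH25H (−1.49 ± 0.63), which makes 25-hydroxycholesterol, an oxysterol that LXR binds. With slide as a block CH25H was at 0.92 and 0.97, and under the labels of the table at −0.43 and 1.69.

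Of 19 other LXR targets 6 passed as higher and 1 as lower at P1 (36.8% in all, beside 24% of genes), and 1 each at P3 (2 of 19, beside 7.27% of genes). The lower one was SREBF1 both times. ABCG5, a sterol transporter, passed as higher at both passages (0.68 ± 0.26 and 0.62 ± 0.26). APOC2, the activator of lipoprotein lipase, was at 1.97 ± 0.52 at P1 but was well above background on only 2 of 3 P1 DMEM arrays. Under the slide block ABCG5 was at −0.33 and −0.16 and APOC2 at −0.42 at P1, and under the labels of the table ABCG5 was at 0.14 and −0.38 and APOC2 at −0.32. Counts in this list turned with the scaling: 13 of 19 were above 0 at P1, but 7 of 19 under quantile normalization, where 1 passed as higher and 2 as lower. Of the 15 targets well above background on all arrays, 4 passed as higher and 1 as lower at P1. Beside these, 15.4% and 1.43% of genes under this filter passed as higher and as lower.

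Of 24 genes of cholesterol transport and storage inside the cell, 2 passed as higher and none (0) as lower at P1, and none (0) as higher and 3 as lower at P3. These shares, 8.33% and 12.5%, stood beside 24% and 7.27% of all genes. STARD5, a carrier of cholesterol in the cytosol, was higher at P1 by 1.38 ± 0.24 (adjusted p = 0.103, limma) and at 0.30 ± 0.24 at P3, and SIDT2 was at 0.64 ± 0.20 at P1. Under the labels of the table STARD5 was at −0.13 and −0.94 and SIDT2 at −0.045 at P1. Fitting slide as a block left neither gene past an unadjusted p of 0.05 at P1, where 0 of the 24 passed. At P3 that fit passed 0 of the 24 as higher and 3 as lower. Of all genes it passed 3.21% at P1 and 3.88% at P3. At P3 the lower genes included LAMP1 (−0.73 ± 0.22) and LAMP2 (−0.43 ± 0.16), the main proteins of the lysosome membrane, which were at 0.31 and 0.050 under the labels of the table.

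Of 15 genes of HDL and cholesterol acceptors, 11 were lower at P1 and 14 at P3. At an unadjusted p of 0.05, 2 passed as higher and 1 as lower at P1 (20% in all, beside 24% of genes), and none (0) as higher and 2 as lower at P3 (13.3%, beside 7.27%). The 2 higher genes, APOA2 and APOA4, were kept only because all P1 ACM arrays had them well above background. Of the 11 genes well above background on all arrays, 0 passed as higher and 1 as lower at P1, and 0 and 3 at P3. Beside these, 16.8% and 8.96% of genes under this filter passed. With slide as a block 11 of 15 were lower at P1 and 8 of 15 at P3. LIPG, the endothelial lipase, had −1.07 ± 0.38 and −1.34 ± 0.38 without overlap at either passage (0.84 and 0.78 under the labels of the table), and APOL6 −1.28 ± 0.50 at P3. None (0) of the P1 DMEM arrays had APOA4 or APOA2 well above background. Since both were kept through the group where they were higher, no fold is given for either. P1 DMEM replicates 1 and 2 were on slide 2 and had 74.2% and 80.2% of probes well above background. At P3, 12 of 14 genes of this list were higher under the labels of the table.

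**Figure D4:**
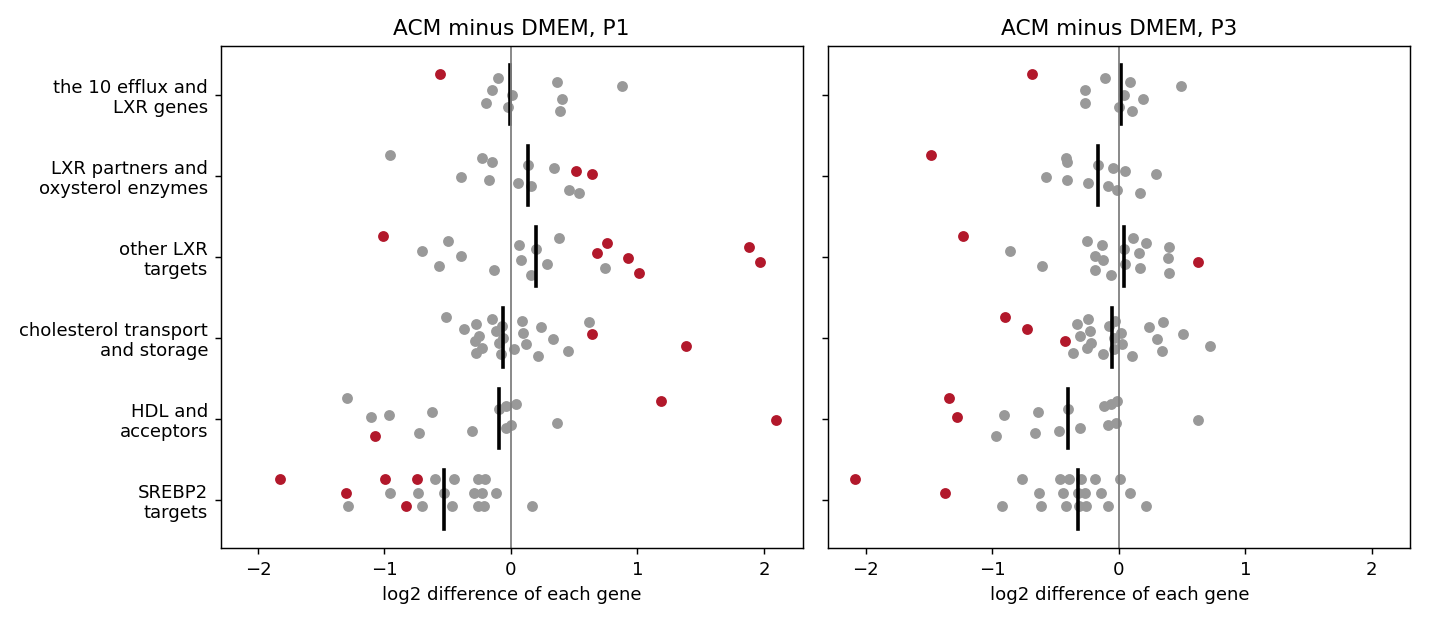
Difference between ACM and DMEM (horizontal axis, log2) of each measured gene of 6 lists at P1 (left) and P3 (right); points are genes, red for an unadjusted p of 0.05 or less, black bars are list medians, and height within a row has no meaning. The median of the 10 efflux and LXR genes lies at −0.01 and 0.02, and that of the SREBP2 targets at −0.53 and −0.32.

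The uptake and synthesis side had more values below 0 than the efflux side, as the plot of the 6 lists shows. Of 21 targets of SREBP2, the factor that is active when cells are short of cholesterol, 20 were below 0 at P1 and 18 at P3. At an unadjusted p of 0.05, 5 passed at P1 and 2 at P3, all lower. These shares, 23.8% and 9.52%, stood beside 24% and 7.27% of all genes. As lower alone, 0.91% of all genes passed at P1 and 3.43% at P3. INSIG1, which holds the SREBP factors back in the endoplasmic reticulum, had −1.30 ± 0.43 at P1 and −0.63 ± 0.43 at P3, and 0.57 and 0.31 under the labels of the table. SREBF2, which codes for SREBP2, had −0.26 ± 0.18 and −0.14 ± 0.18. The difference between the 2 lists was not tested. With slide as a block 20 and 21 of 21 targets were below 0, and 20 and 14 of 21 were above 0 under the labels of the table.

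Markers of other cell types were also read. Macrophages and microglia are rich in LXR targets. Over 9 of their markers the summed level (in units of the 75th percentile of the array) was 17.7 to 25.3 in P1 ACM, and the P1 DMEM arrays had sums of 13.1 to 18.5. At P3 the ACM arrays had 15.1 to 22.8 and the DMEM arrays 10.6 to 12.9. Between 7 and 9 of the 9 were well above background on each array, and the sum rested mainly on ITGAM, at 4.28 in P1 ACM and 3.78 in P1 DMEM. At an unadjusted p of 0.05, 4 of the 9 (44.4%) passed as higher at each passage and none (0) as lower. Of all genes 24% passed at P1 (23.1% as higher) and 7.27% at P3 (3.85% as higher). Of the 7 markers well above background on all arrays, 2 passed as higher at P1 and 3 at P3. Beside these, 15.4% and 4.76% of genes under this filter passed as higher. The labels of the table turned this at P3, where the sum was 8.24 to 12.3 in ACM and 15.6 to 22.4 in DMEM and 3 of 9 passed as lower, and with slide as a block none (0) passed at either passage. Of all genes 13% passed as lower at P3 under those labels (21.8% in all). With slide as a block 3.21% of all genes passed at P1 and 3.88% at P3. For 10 astrocyte markers the sums overlapped, with P1 ACM at 4.43 to 5.96 and P1 DMEM at 5.42 to 6.21. At P3 the same sums were 3.73 to 6.15 for ACM and 4.36 to 5.32 for DMEM. The sum rested mainly on GJA1, at 1.81 in P1 ACM and 1.92 in P1 DMEM, while dimmer markers moved. Of 9 tested, ALDH1L1 (1.65), GJB6 (2.70), SLC1A2 (0.67) and S100B passed an unadjusted p of 0.05 as higher at P1 and AQP4 (−1.37) as lower. At P3 AQP4 (−1.94) and SLC1A3 (−0.53) passed as lower. This made 55.6% of the 9 at P1 and 22.2% at P3, beside 24% and 7.27% of all genes. Of the 6 well above background on all arrays, 1 passed as higher and 1 as lower at P1, and 0 and 2 at P3. Beside these, 16.8% and 8.96% of genes under this filter passed. S100B was well above background on 0 of 3 P1 DMEM arrays, which gives at least 2.21-fold more in P1 ACM (adjusted p = 0.103, limma), and GJB6 on 1 of 3. GFAP, the defining astrocyte marker, was too dim to be tested, being well above background on 7 of 12 arrays. Slide as a block left 0 of the 9 past an unadjusted p of 0.05 at P1 and 1 at P3, beside 3.21% and 3.88% of all genes. Under the labels of the table none (0) of 10 passed at P1 and 3 at P3, beside 5.51% and 21.8% of all genes. All samples were cultures of 1 human line, and the paper states that conditioned media were passed through filters before use, to clear dead cells and debris. The part of these markers in the results was not tested. In RNA of whole cultures more cells with a marker and more RNA per cell cannot be told apart.

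**Figure D5:**
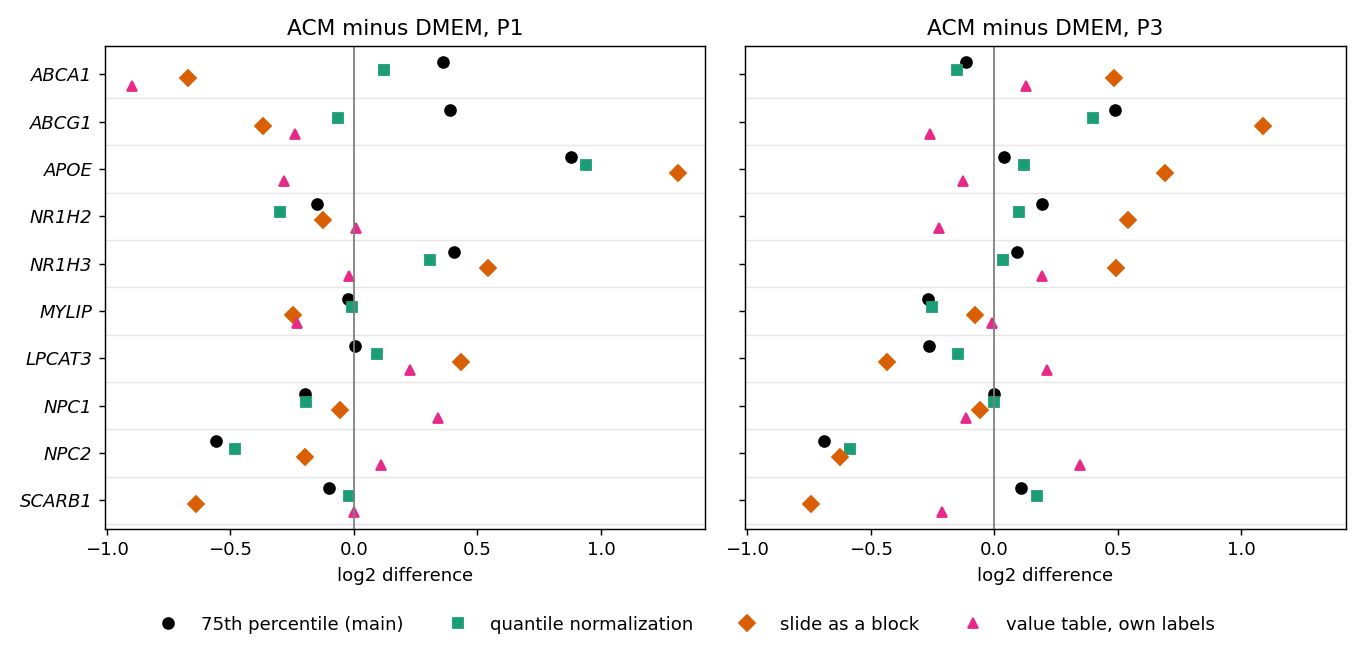
Difference between ACM and DMEM (horizontal axis, log2) of each gene at P1 (left) and P3 (right) under 4 settings: the 75th percentile, quantile normalization, slide as a block, and the deposited table with the labels it carries. For NPC2 the first 3 settings lie below 0 at both passages and the table lies above 0.

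Passages were also compared within each medium. In ACM 7 of 10 were higher at P3 than at P1, from −0.27 for NR1H2 to 0.25 for ABCA1. Their median was 0.12, beside −0.10 for all genes, whose quartiles were −0.50 and 0.10. None (0) passed an unadjusted p of 0.05, which 13.7% of genes did. The arrays did not overlap for 1 of 10, NR1H2, lower at P3, and the share of all genes for this is not given. In DMEM APOE passed as higher and NR1H2 as lower, 2 of 10 beside 8.13% of genes. The arrays in DMEM did not overlap for 1 of 10 as higher (APOE) and 2 as lower (NR1H2 and NPC1), beside 11.2% and 7.77% of genes. Under the labels of the table the differences of APOE and NR1H2 in DMEM were 0.18 and −0.055, and none (0) of the 10 passed in either medium. The plot of settings shows how the 10 differences moved. Quantile normalization turned the sign of 1 of 10 genes at P1 and of 0 at P3, slide as a block turned 2 at each passage, and the labels of the table turned 7 at each. None (0) of the 10 had an unadjusted p of 0.05 or less under those labels or with slide as a block. Of all genes 5.51% at P1 and 21.8% at P3 passed under those labels, and 3.21% and 3.88% with slide as a block. The standard error of the mean NPC2 difference over both passages was 0.16 in the main fit and 0.36 with slide as a block.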

How the data were processed

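RNA of 12 Daoy cultures (3 for each medium and passage) was hybridised to Agilent 4 x 44K arrays in 1 colour, and samples were grouped by the labels of the scanner output. The authors deposited spot intensities that Agilent Feature Extraction 11.0.1.1 had corrected for background, not normalized between arrays, and a table of log2 values of 30569 probes, whose columns have medians of 9.02 and hold log2 intensity after a normalization between arrays that is not given in the sources used here. The table was used as an alternative, under both sets of labels. Its columns were neither centred by gene nor given as ratios.

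After removal of 1377 control spots and of outlier spots, repeated spots were averaged, and each array was scaled by subtracting its own 75th percentile from log2 intensity. Of 34127 probes, 31073 were kept because all arrays of some group had them well above background. Symbols came from the accessions through the RefSeq table of GRCh38.p14 (25771 probes, 75.5%), and the probe with the highest mean stood for a gene. Groups were compared with limma 3.58.1 in R 4.3.3 in a fit of 4 group means on 12 arrays (8 residual degrees of freedom), by two-sided tests, and p-values were adjusted over all kept probes by the Benjamini-Hochberg method. The fit was tested on simulated data. At P1 the deviations of equally numbered samples from their group means correlated by 0.43, 0.19 and 0.27, so the fit with the number as a block was run as an alternative. The fit of 4 group means holds no block. At P3 these values were 0.23, −0.19 and 0.06. Samples of unequal number were not compared in this way, so whether equal numbers mark paired samples was not tested. The labels call the replicates independent experiments.

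The 10 genes and all lists were chosen with earlier results of these data known. Named from each list were the 2 genes with the lowest p at each passage, with RXRA, RXRB, SREBF1, SREBF2 and INSIG1 always (some genes that this rule names are not reported here), and for ABCA1 and MYLIP the 3 genes most correlated. Where no array of 1 group measured a probe above background, a lower bound of the fold was computed, taking for the dim group the higher of its own level and the lowest level well above background on each array. Alternatives included quantile normalization alone or after normexp on the median intensity (offset of 50), other filters, samples and moderation, the methods' t-test, replicate and slide blocks, each array left out, probes averaged by gene, and the table. The replicate block on the 6 arrays compared, slide with quantile normalization and the table under the scanner labels were added after seeing the data. Figures were drawn with matplotlib 3.10.9.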

Additional observations from a re-analysis of the deposited data

How the results depend on the processing

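At P1, where 1 gene (NPC2) had an unadjusted p of 0.05 or less, the count was 2 (with APOE) under quantile normalization, eBayes with trend and robust, the replicate block, the probes well above background on all arrays and the table under the scanner labels. Normexp before quantile normalization also gave 1, but APOE (0.87) in place of NPC2 (−0.32). It was 3 (with NR1H3) with the replicate block on the P1 arrays alone, which also gave 1 gene (APOE) at an adjusted p of 0.05 in place of 0, and it was 0 by the methods' t-test, with slide as a block alone or after quantile normalization, with slide as a random block and under the table's own labels. At P3 this count, 1 (NPC2), became 0 with the replicate block on the P3 arrays alone, with slide as a block alone or after quantile normalization and under the table's own labels. For the mean of both passages it went from 1 to 0 with slide as a block alone or after quantile normalization and under the table's own labels. For the difference between passages slide as a block, alone or after quantile normalization, gave 1 gene (ABCG1) in place of 0, also past 2-fold. Shares of all genes for the mean and for this difference are not given under these settings. The replicate block on all 12 arrays changed no other call among the 10 genes. Of all genes 3.21% passed at P1 and 3.88% at P3 with slide as a block, and 3.13% and 4.02% with it after quantile normalization. With the replicate block 24.9% passed at P1 on all arrays and 35.2% on the P1 arrays alone, where 5473 genes passed an adjusted p of 0.05. On the P3 arrays alone 3.56% passed at P3. With slide as a random block 3.38% passed at P1, and under the table's own labels 5.51% at P1 and 21.8% at P3.

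Leaving out 1 array each gave 0 to 2 genes at P1 (0 without P1 ACM replicate 1 or P1 DMEM replicate 1, 2 without P3 ACM replicate 2 or 3) and 0 to 1 past the study's thresholds, 1 to 2 at P3 (2 without P3 ACM replicate 2), 1 to 2 for the mean of both (2 without P1 ACM replicate 2, P1 DMEM replicate 3 or P3 ACM replicate 2), 0 to 1 of the mean at an adjusted p of 0.05, and 0 to 1 for the difference between passages (APOE, without P3 ACM replicate 3), also past 2-fold. The differences that changed sign ran over these arrays from −0.12 to 0.76 for ABCA1 at P1 and −0.57 to 0.48 at P3, −0.35 to 0.35 for APOE at P3, −0.16 to 0.14 for LPCAT3 and −0.27 to 0.17 for MYLIP at P1, −0.16 to 0.093 for NPC1, −0.066 to 0.34 for NR1H2 and −0.11 to 0.29 for NR1H3 at P3, and −0.35 to 0.21 for SCARB1 at P1 and −0.13 to 0.37 at P3.

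Signs also turned under other settings. ABCA1 was at −0.67 (P1) and 0.48 (P3) with slide as a block, −0.77 and 0.36 with slide after quantile normalization, −0.13 and 0.26 with slide as a random block and −0.90 and 0.13 under the table's own labels. ABCG1 at P1 was at −0.11 after normexp, −0.0658 under quantile normalization, −0.37 and −0.33 with slide as a block alone or after quantile normalization, −0.0636 in the table under the scanner labels and −0.24 under its own, and at P3 −0.26 under the latter. SCARB1 was at 0.016 after normexp at P1, and at P3 at −0.74, −0.65 and −0.17 with slide as a block, after quantile normalization and as a random block, and −0.21 under the table's own labels. Those labels also turned APOE (−0.28 at P1, −0.12 at P3), NPC1 (0.34 at P1), NPC2 (0.11 and 0.35), NR1H2 (0.0078 and −0.22), NR1H3 (−0.021 at P1) and LPCAT3 (0.21 at P3). The causes were not tested.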
